A study of Rattus norvegicus with 6 samples.

Results

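The genes described here are 42 genes of epithelial cells, listed by name: 2 of cell adhesion, 12 of tight junctions, 8 of desmosomes, 6 transcription and splicing factors, 8 of the apical surface, polarity and membrane proteases, and 6 secretory or hormone-regulated genes of uterine epithelium and glands. Keratins were not on the list. Of the 42, 38 had at least 1 probe set annotated to that gene alone, among 14217 such genes on the array. No probe set here carried the name of Marveld2, Grhl2, Ovol1 or Wnt7b alone, so these 4 are not analysed. A gene with several probe sets is given by its brightest one on average.

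RNA came from the metrial gland of pregnant rats, a region of the uterine wall on the maternal side of the placenta that fills with natural killer cells and, later, with invading trophoblast. The hypoxia group breathed 10.5% oxygen over gestation days 6.5 to 13.5 and the ambient group breathed 21% oxygen. Each group has 3 samples, 1 array each, and tissue was taken at the end of the exposure. The labels give no strain or age and do not say whether the samples of a group are separate animals, so the p-values measure a spread between samples that may be technical.

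Epithelial cells are held together by adherens junctions built on E-cadherin, by tight junctions of claudins and occludin that seal the space between cells, and by desmosomes that anchor keratin filaments. Grainyhead and ETS factors are among those that drive such genes. In the uterus they mark the luminal lining and the glands, and trophoblast, itself an epithelium, uses many of them too.

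All levels are log2 values of a probe set and all differences are log2, hypoxia minus ambient, with standard errors (SE) from 3 arrays a group. Levels of different genes are not compared, since probe sets differ in brightness. The 6 arrays had medians of 6.44 to 6.47 and correlated at 0.974 to 0.993 over 18625 probe sets. Background was read from 27 bacterial control probe sets, which reached at most 5.003 on any array. Natural killer cell genes of the metrial gland were bright, with perforin (Prf1) at 13.32 to 13.46 on hypoxia arrays and 13.45 to 13.78 on ambient arrays. The 3' minus 5' signal of beta-actin, a sign of RNA integrity, was 0.58, 0.77 and 0.66 on hypoxia arrays, against 0.53, 0.54 and 0.41 on ambient arrays, without overlap. That of GAPDH was -0.04, 0.06 and -0.01 on hypoxia arrays, against -0.05, -0.01 and -0.05 on ambient arrays, with overlap. The part of the beta-actin difference in the results below was not tested.

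Epcam and Cldn10 had the largest falls of the group, followed by Slc34a2 and Cdh1, and F11r, a junction protein found also on endothelium and platelets, was the only listed gene to rise. Of the 38 genes, 27 had a mean above 5.74 and entered the fit. Of these 27, 11 fell, 1 rose and 15 did not pass (limma, adjusted p under 0.05 over all probe sets fitted). Over the whole array 1.97% of probe sets were called lower and 4.02% higher, or 367 and 749 of them, and after quantile normalization 521 and 648. The groups did not overlap for 17 genes that were lower in hypoxia and for 2 that were higher, against 14.1% and 15.8% of all probe sets. The median difference of the 27 was -0.44, beside 0.0034 for all probe sets fitted. These counts are a description, because the genes were listed with earlier results of these data known. The filter can also keep a gene through its brighter group: Cldn10, Dsg2, Spint1 and Tjp3 had a hypoxia mean below the filter. With no filter, all 38 genes were fitted. Then 11 were lower and 1 was higher, where 1.12% and 2.34% of all probe sets were called, and the median was -0.28 against -0.0195 for all probe sets. Of these 11, 10 were shared: Spint2 lost its call (adjusted p = 0.0574) and Cldn8, mostly within the bacterial range, gained one (adjusted p = 0.0113).

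The count of falls depended on single arrays. It was 3 without ambient replicate 1, 3 without ambient replicate 2, 2 without ambient replicate 3, 8 without hypoxia replicate 1, 2 without hypoxia replicate 2 and 6 without hypoxia replicate 3. Of those 6, 5 were among the original 11. Lower calls over the whole array also dropped, from 367 to 145, 78 and 44 without ambient replicates 1 to 3. They were 135, 90 and 346 without hypoxia replicates 1 to 3. With no variance trend in the fit, 7 of the listed genes and 241 probe sets of the whole array were called lower. Dsg2 alone among the 11 was called in every one of these fits. In bulk tissue a smaller number of epithelial cells and less RNA per cell cannot be told apart.

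**Figure D1:**
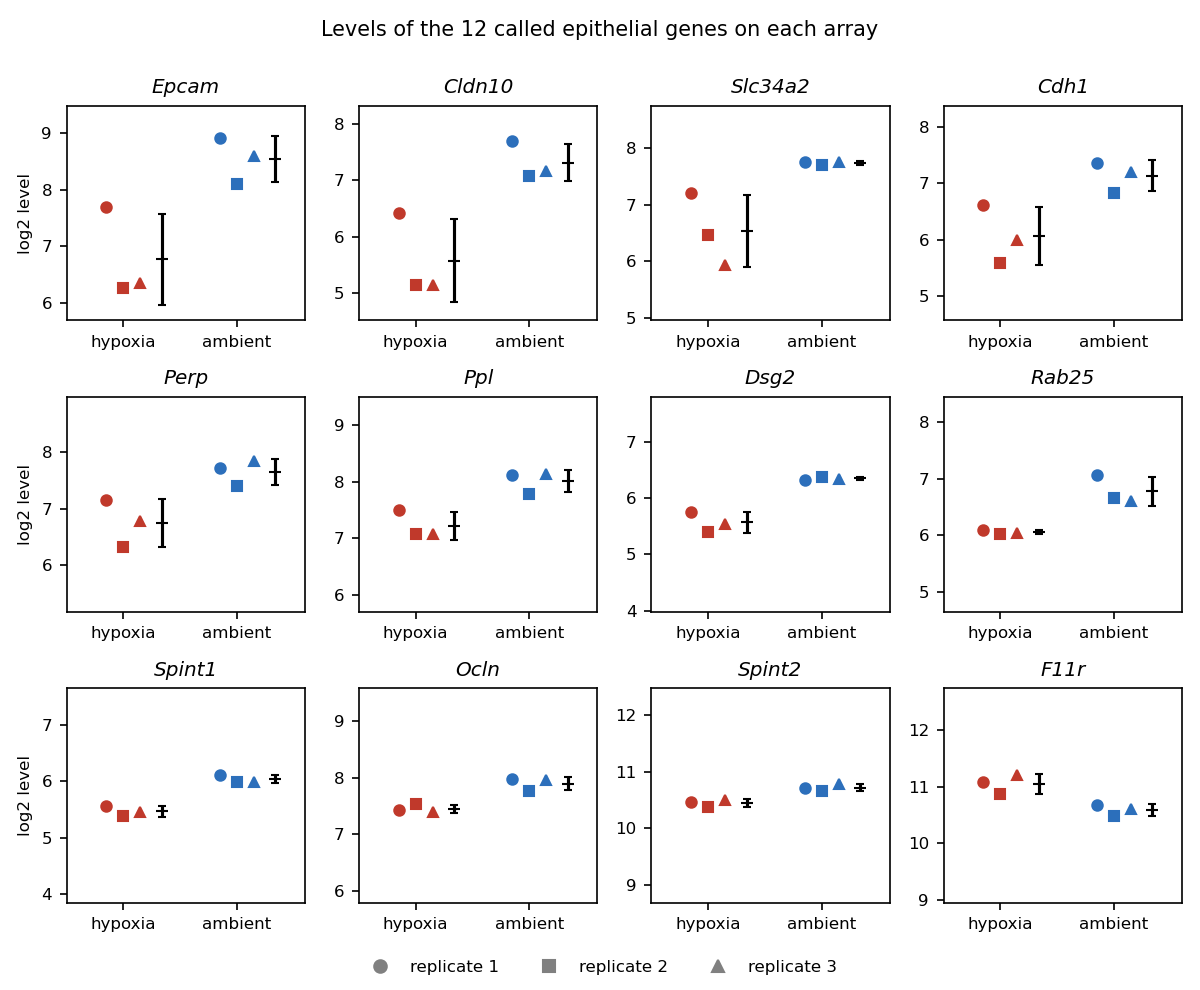
Log2 level of the 12 called genes on each array, hypoxia on the left and ambient on the right of each panel, with symbols for replicates and bars for the group mean and SD (n = 3). Every vertical axis spans the same number of log2 units but starts at a different level. Hypoxia replicate 1 lies above the other hypoxia arrays for Epcam, Cldn10, Slc34a2 and Cdh1, and below all ambient arrays.

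Adhesion was represented by E-cadherin and by the epithelial cell adhesion molecule, and both fell. Epcam stood at 7.70, 6.26 and 6.34 on hypoxia replicates 1 to 3, against 8.91, 8.10 and 8.59 on ambient replicates 1 to 3. The groups did not overlap, and hypoxia replicate 1 was the high array of its group by more than 1 log2 unit. Epcam fell by 1.77 (SE 0.38, 95% interval of the difference -2.64 to -0.90, adjusted p = 0.0381), a level 3.41-fold higher in ambient. Cdh1, which encodes E-cadherin, stood at 6.62, 5.59 and 6.00 in hypoxia, against 7.36, 6.83 and 7.21 in ambient. Hypoxia replicate 1 was again highest in its group and ambient replicate 2 lowest in its own, with a gap between the groups. Cdh1 fell by 1.07 (SE 0.25, adjusted p = 0.0490), a level 2.09-fold higher in ambient. A second probe set of Cdh1 lay at 3.58 in hypoxia and 3.54 in ambient, within the bacterial range, and carries no information. Both calls held without hypoxia replicate 1 and ended without any other single array, with adjusted p up to 0.124 for Epcam and 0.154 for Cdh1. They also ended with a robust trend (0.0579 and 0.050012) or array weights (0.0613 and 0.0785), and that of Cdh1 with no variance trend (0.0596).

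The 250 bases upstream of the start of Epcam, of the next members in size of fall with an entry at the gene's start (Cldn10 and Perp) and of F11r are shown because these genes moved in opposite directions. They are RefSeq sequences of build GRCr8. Capitals mark matches, on either strand, to an E-box read by Snail and Zeb repressors (CACCTG), to the core of a hypoxia response element (ACGTG or GCGTG) or to an Sp1 GC box (GGGCGG).
Epcam, chr6:12649679-12649928, minus strand: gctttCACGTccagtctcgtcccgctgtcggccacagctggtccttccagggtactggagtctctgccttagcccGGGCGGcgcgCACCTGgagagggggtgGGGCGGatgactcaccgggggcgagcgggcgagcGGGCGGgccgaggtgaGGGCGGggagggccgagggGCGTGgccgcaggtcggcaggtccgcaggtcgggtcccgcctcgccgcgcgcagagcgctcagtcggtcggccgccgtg
Cldn10, chr15:102269608-102269857, plus strand: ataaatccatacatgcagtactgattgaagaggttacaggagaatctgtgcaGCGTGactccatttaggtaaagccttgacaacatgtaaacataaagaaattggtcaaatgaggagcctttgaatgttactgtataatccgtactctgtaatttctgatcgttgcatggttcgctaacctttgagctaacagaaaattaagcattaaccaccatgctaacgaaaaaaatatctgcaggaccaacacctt
Perp, chr1:15361534-15361783, plus strand: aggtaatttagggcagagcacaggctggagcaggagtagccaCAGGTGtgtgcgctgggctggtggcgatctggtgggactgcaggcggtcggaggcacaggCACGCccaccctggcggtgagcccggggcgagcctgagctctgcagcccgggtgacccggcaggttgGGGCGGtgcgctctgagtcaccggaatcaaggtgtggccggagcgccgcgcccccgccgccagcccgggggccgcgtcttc
F11r, chr13:86405979-86406228, plus strand: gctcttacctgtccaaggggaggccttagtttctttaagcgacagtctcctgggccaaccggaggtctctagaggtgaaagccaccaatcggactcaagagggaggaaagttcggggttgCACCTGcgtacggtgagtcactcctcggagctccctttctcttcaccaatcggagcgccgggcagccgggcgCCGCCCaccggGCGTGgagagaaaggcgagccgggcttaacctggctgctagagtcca
The E-box occurred in Epcam, Perp and F11r and the hypoxia core in all 4. F11r, which rose, held the same kinds of match as Epcam and Perp, which fell. The part of these matches in either direction was not tested. Of the 42 listed genes, 15 had an entry at the gene's annotated start. A match is a description of these letters and not a site. The E-box was found in 9 of these 15 and in 15.3% of 19334 promoters of the same length, the hypoxia core in 9 and 32.8%, and the GC box in 10 and 24.9%. The palindrome AACCGGTT, bound by grainyhead factors such as Grhl2, was in 0 of 15 and in 0.13%. Base composition moves with such counts: the shown windows hold 75.6% G and C in Epcam, 38.0% in Cldn10, 71.6% in Perp and 61.2% in F11r, and the median over all promoters was 49.2%. Its part in the counts was not tested.

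Tight junction genes did not move as one. Of 12 listed, 11 had a probe set and 8 were fitted, of which 2 fell, 1 rose and 5 did not pass. Cldn10, a claudin that forms ion-selective pores, stood at 6.42, 5.15 and 5.15 in hypoxia, against 7.68, 7.08 and 7.16 in ambient. Hypoxia replicates 2 and 3 were just above the brightest bacterial control, and replicate 1 lay between them and the ambient arrays. Cldn10 fell by 1.74 (SE 0.34, adjusted p = 0.0299), a level 3.33-fold higher in ambient. The call held only without hypoxia replicate 1 when single arrays were left out, with adjusted p up to 0.0897 without ambient replicate 3 and at least 0.0574 without the rest. Ocln encodes occludin, a membrane protein of the junction strands. It stood at 7.43, 7.54 and 7.40 in hypoxia, against 7.97, 7.76 and 7.96 in ambient, tight groups with no overlap. Ocln fell by 0.44 (SE 0.09, adjusted p = 0.0324), and its second probe set fell by 0.52 (adjusted p = 0.0452). Its call ended without any 1 array except ambient replicate 2, with adjusted p up to 0.117, and in the fit with a replicate block (0.0515).

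F11r, the junctional adhesion molecule A, stood at 11.07, 10.86 and 11.21 in hypoxia, against 10.68, 10.47 and 10.60 in ambient. Every hypoxia array lay above every ambient array. The rise was by 0.47 (SE 0.10, 95% interval 0.24 to 0.69, adjusted p = 0.0354), a level 1.38-fold higher in hypoxia, and the call ended without any 1 array except hypoxia replicate 2 (up to 0.110) and in the fit without a variance trend (0.0530). Endothelial markers moved the same way beside it, and 5 of 6 on the list were measured. All 5 had higher, non-overlapping hypoxia values, against 15.8% of all probe sets. Of the 5, 3 (Tie1, Cldn5 and Vwf) rose, against 4.02% of all probe sets. The summed linear signal of all 5 was 2502 to 2707 on hypoxia arrays, against 1816 to 2009 on ambient arrays. Most of it came from Pecam1 and Esam, which did not pass (adjusted p = 0.131 and 0.0625). The part of endothelial cells in the difference of F11r was not tested. Tjp1 encodes the scaffold ZO-1, which endothelium and stroma also make. It had 11.42, 11.51 and 11.43 in hypoxia, against 11.35, 11.29 and 11.10 in ambient. The difference was 0.21 (SE 0.07, adjusted p = 0.145). A dimmer probe set of Tjp1 gave -0.23 (adjusted p = 0.365), so the sign of Tjp1 depends on the probe set, and the mean of both was -0.01. Without ambient replicate 3 the brightest one gave 0.13.

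The other claudins did not pass. Cldn7 stood at 6.97, 6.28 and 6.59 in hypoxia, against 7.19, 6.92 and 7.59 in ambient, and the groups overlapped. Its difference was -0.62 (SE 0.21, adjusted p = 0.127), with a 95% interval of -1.10 to -0.13. Cldn3 stood at 7.17, 6.86 and 7.05 in hypoxia, against 7.54, 7.28 and 7.35 in ambient, a difference of -0.36 (SE 0.11, adjusted p = 0.0954). Cldn1 stood at 6.19, 6.04 and 6.29 in hypoxia, against 6.34, 6.40 and 6.53 in ambient, a difference of -0.25 (SE 0.10, adjusted p = 0.183). Tjp3, the scaffold ZO-3, stood at 5.43, 5.73 and 5.70 in hypoxia, against 5.91, 5.90 and 5.82 in ambient, a difference of -0.26 (SE 0.10, adjusted p = 0.182). Without hypoxia replicate 1 that of Tjp3 was -0.16. For each of Cldn3, Cldn1 and Tjp3 the hypoxia arrays all lay below the ambient arrays. Cldn8, a barrier claudin, was left out for its low mean, at 3.89, 3.86 and 3.85 in hypoxia, against 5.15, 4.61 and 4.62 in ambient. It lay within the bacterial range on all arrays but ambient replicate 1, so no fold is given, although the fit with no filter called it lower (-0.93, adjusted p = 0.0113). Cldn4 lay at 4.13 to 4.33 and differed by -0.01 with no filter (adjusted p = 0.974). Cgn, which encodes cingulin, lay at 4.61 to 4.83 and differed by -0.03 with no filter (adjusted p = 0.883). Both stayed within the bacterial range on every array.

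**Figure D2:**
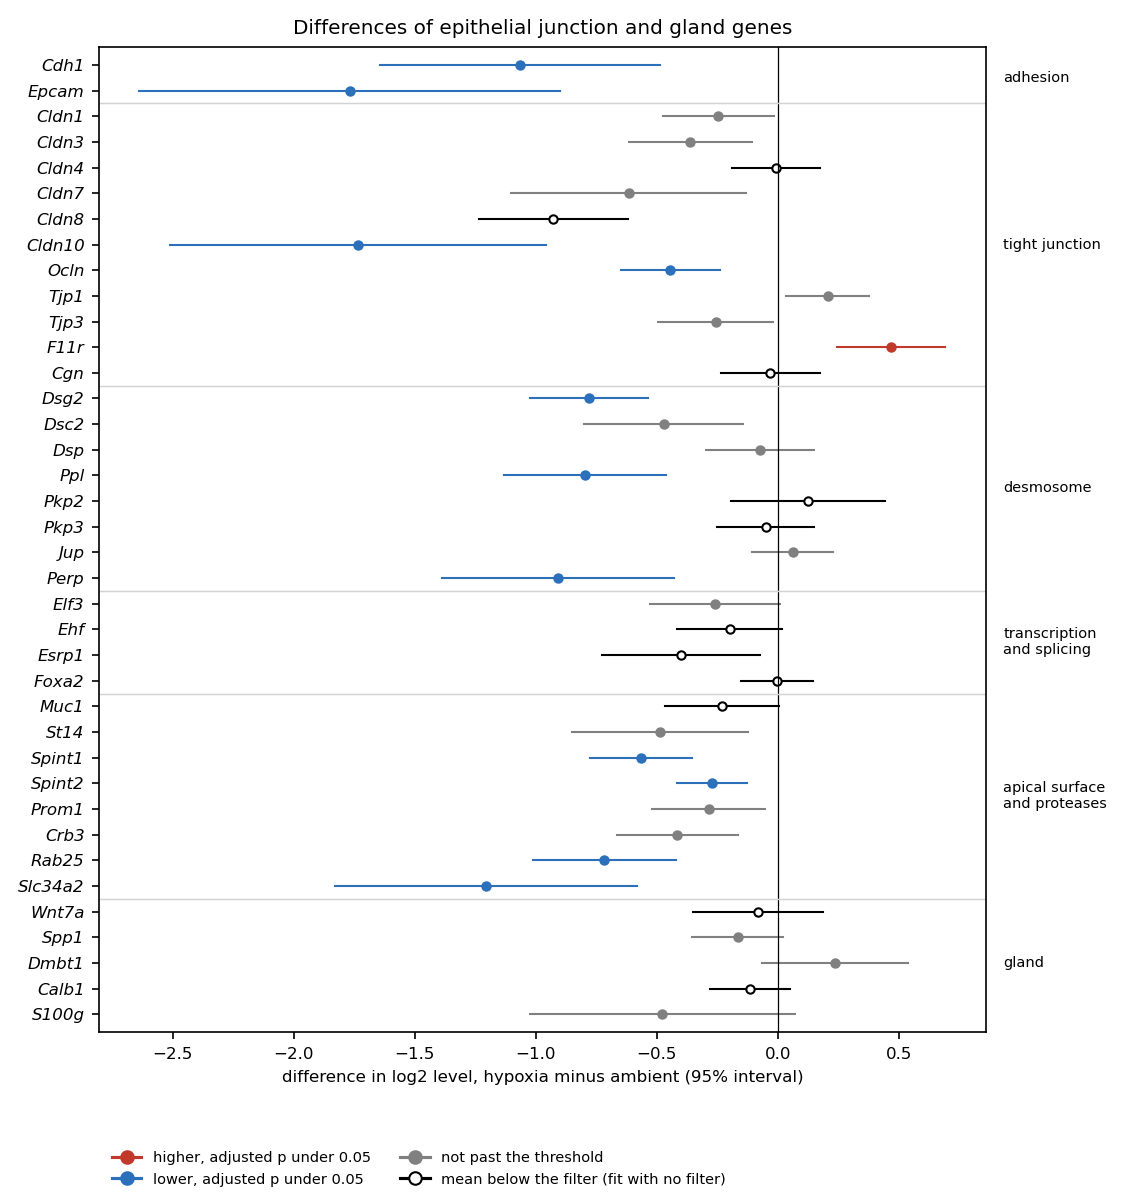
Difference in log2 level, hypoxia minus ambient, with its 95% interval for the 38 genes that had a probe set, grouped by class. Open symbols are the 11 genes below the filter on low means, with intervals from the fit without it. Most points lie left of 0, F11r is the 1 called gene to the right, and the intervals of Epcam and Cldn10 are the widest.

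Desmosomal genes were called in 1 direction. Of 8 listed, all had a probe set and 6 were fitted: 3 fell, 0 rose and 3 did not pass. Dsg2, a desmosomal cadherin, stood at 5.75, 5.40 and 5.55 in hypoxia, against 6.32, 6.38 and 6.34 in ambient. The ambient arrays were nearly equal and all hypoxia arrays lay well below them. The hypoxia mean of 5.57 was under the filter at 5.74, so Dsg2 was kept through its brighter ambient arrays. With an offset of 64, which compresses low signals, its difference was -0.38. Dsg2 fell by 0.78 (SE 0.11, 95% interval of the difference -1.03 to -0.54, adjusted p = 0.0100), a level 1.72-fold higher in ambient and the smallest p of the list, and kept its call without any 1 array (adjusted p 0.0137 to 0.0443). Ppl, which encodes periplakin, a linker from desmosomes to keratin filaments, stood at 7.5004, 7.08 and 7.07 in hypoxia, against 8.12, 7.79 and 8.13 in ambient. Ppl fell by 0.80 (SE 0.15, adjusted p = 0.0245). Its call ended when ambient replicate 1 (0.0722), ambient replicate 3 (0.0943) or hypoxia replicate 2 (0.0705) was left out. Perp, a desmosomal membrane protein and p53 target, stood at 7.15, 6.31 and 6.77 in hypoxia, against 7.72, 7.39 and 7.84 in ambient. Perp fell by 0.91 (SE 0.21, adjusted p = 0.0455), and its second probe set fell by 0.82 (adjusted p = 0.0397). Its call held without hypoxia replicate 1 and ended without any other single array (up to 0.153), with no variance trend (0.0560) and with array weights (0.0629).

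The other desmosomal genes did not pass or were too dim to be fitted. Dsp, which encodes desmoplakin, stood at 7.15, 7.01 and 6.93 in hypoxia, against 7.23, 7.08 and 7.0029 in ambient, a difference of -0.07 (SE 0.10, adjusted p = 0.683) with a 95% interval of -0.30 to 0.15. A dimmer probe set, left out for its mean, gave 0.24, and the mean of both gave 0.08. Jup, or plakoglobin, a plaque protein shared with adherens junctions of many tissues, stood at 9.33, 9.44 and 9.32 in hypoxia, against 9.37, 9.33 and 9.21 in ambient, a difference of 0.06 (SE 0.07, adjusted p = 0.652) with a 95% interval of -0.11 to 0.23. Dsc2, a second desmosomal cadherin, stood at 8.95, 8.64 and 9.10 in hypoxia, against 9.17, 9.35 and 9.60 in ambient. Its groups did not overlap, and the difference of -0.47 (SE 0.14, adjusted p = 0.0942) did not pass. It passed with a replicate block (0.0444). The plakophilins Pkp2 and Pkp3 were left out for low means, with values of 5.0001 to 5.59 and 5.10 to 5.31. They differed by 0.12 with no filter (adjusted p = 0.678) and by -0.05 with no filter (adjusted p = 0.798).

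Transcription and splicing factors were mostly below the filter or without a probe set. Of 6 listed, 4 had a probe set and 1, the ETS factor Elf3, was fitted. Elf3 stood at 6.32, 5.97 and 6.05 in hypoxia, against 6.51, 6.30 and 6.32 in ambient, and differed by -0.26 (SE 0.12, adjusted p = 0.222). Esrp1, which directs epithelial splicing, stood at 5.54, 5.60 and 5.33 in hypoxia, against 6.20, 5.73 and 5.72 in ambient. The groups did not overlap, and the fit with no filter gave -0.40 (adjusted p = 0.175). The ETS factor Ehf lay at 4.17 to 4.5951 and differed by -0.20 with no filter (adjusted p = 0.297). Foxa2, the forkhead factor that defines uterine glands, lay at 3.85 to 4.0043 and gave an adjusted p of 0.988 with no filter. Both were within the bacterial range on all 6 arrays. The defining factor of glands thus had no signal above the bacterial controls in either group.

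Listed genes of the apical surface all had negative differences. Of 8 listed, all had a probe set and 7 were fitted: 4 fell, 0 rose and 3 did not pass. Slc34a2, a sodium-phosphate cotransporter of secretory epithelia, stood at 7.21, 6.46 and 5.94 in hypoxia, against 7.76, 7.70 and 7.77 in ambient. The hypoxia arrays were spread over more than 1 log2 unit while the ambient arrays were nearly equal. Slc34a2 fell by 1.21 (SE 0.27, adjusted p = 0.0429), a level 2.31-fold higher in ambient. The call ended when hypoxia replicate 2 or any single ambient array was left out (up to 0.135), with no variance trend (0.0545) and with array weights (0.0576). Rab25, a small GTPase of apical recycling endosomes in epithelia, stood at 6.10, 6.03 and 6.05 in hypoxia, against 7.06, 6.65 and 6.61 in ambient. Here the hypoxia arrays were tight and ambient replicate 1 was high. Rab25 fell by 0.72 (SE 0.13, adjusted p = 0.0230). Leaving out ambient replicate 2 (0.0534), hypoxia replicate 1 (0.0612) or hypoxia replicate 2 (0.0653) ended the call.

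The paired inhibitors of membrane serine proteases both fell. Spint1, or hepatocyte growth factor activator inhibitor 1, stood at 5.57, 5.38 and 5.46 in hypoxia, against 6.12, 5.99 and 5.99 in ambient. Spint1 fell by 0.57 (SE 0.09, adjusted p = 0.0159), a call that ended without ambient replicate 2 (0.0534) or ambient replicate 3 (0.0575). Spint2, the second inhibitor, stood at 10.46, 10.37 and 10.50 in hypoxia, against 10.71, 10.66 and 10.78 in ambient. Spint2 fell by 0.27 (SE 0.06, adjusted p = 0.0462), and the call ended without any 1 array (0.0544 to 0.151), with no filter (0.0574) and with no variance trend (0.0742). St14, or matriptase, the protease these inhibitors restrain, stood at 7.77, 7.32 and 7.26 in hypoxia, against 8.17, 7.86 and 7.78 in ambient. The lowest ambient array lay just above the highest hypoxia array, and the difference of -0.49 (SE 0.16, adjusted p = 0.111) did not pass. It passed in the fit with a replicate block (0.0256).

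The remaining apical genes lay close to the threshold or short of it. Crb3, a polarity protein of the Crumbs complex, stood at 6.11, 6.19 and 5.85 in hypoxia, against 6.56, 6.43 and 6.41 in ambient at its brightest probe set, a difference of -0.42 (SE 0.11, adjusted p = 0.0654). It passed with array weights (0.0498). That probe set is marked by its name as open to related transcripts. A dimmer probe set of Crb3 without this mark fell by 0.67 (adjusted p = 0.0206), and the other 2, left out for low means, gave -0.53 and -0.47. Prom1, or prominin 1, a protein of membrane protrusions, stood at 9.55, 9.60 and 9.92 in hypoxia, against 9.99, 9.92 and 10.02 in ambient. Hypoxia replicate 3 reached the ambient range, and without it the difference was -0.40 and passed (adjusted p = 0.0265), beside -0.29 (SE 0.10, adjusted p = 0.138) with all arrays. Muc1, a cell surface mucin, was left out for its mean, at 5.39 to 5.52 in hypoxia and 5.54 to 5.86 in ambient, and differed by -0.23 with no filter (adjusted p = 0.268).

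Gland and hormone-regulated genes had 0 calls among the 3 fitted of 6 listed, with 0 at an unadjusted p under 0.05. Spp1, or osteopontin, a secreted glycoprotein that macrophages, stroma and killer cells of the pregnant uterus also make, stood at 14.15, 13.97 and 14.04 in hypoxia, against 14.30, 14.04 and 14.32 in ambient. The brightest probe set of each array lay at 14.82 to 14.899, so Spp1 sat near the top of the scale. Its difference was -0.17 (SE 0.08, adjusted p = 0.264), with a 95% interval of -0.36 to 0.02, and was -0.26 without ambient replicate 2 and -0.10 with array weights. S100g, or calbindin D9k, a calcium-binding protein under estrogen and progesterone control, stood at 7.39, 7.36 and 7.20 in hypoxia, against 8.29, 7.89 and 7.21 in ambient. Ambient replicate 3 lay within the hypoxia range. The difference of S100g was -0.48 (SE 0.24, adjusted p = 0.268), -0.77 without ambient replicate 3 and -0.23 without ambient replicate 1. Dmbt1, a secreted scavenger protein of mucosal surfaces, stood at 8.34, 7.86 and 8.04 in hypoxia, against 7.88, 7.95 and 7.71 in ambient, with overlap. It differed by 0.24 (SE 0.13, adjusted p = 0.316) and by 0.11 without hypoxia replicate 1. Calb1, a calcium-binding protein, lay at 3.82 to 4.06, within the bacterial range on every array, and differed by -0.12 with no filter (adjusted p = 0.424). Wnt7a, a Wnt ligand of luminal epithelium, lay at 5.33 to 5.77 and differed by -0.08 with no filter (adjusted p = 0.749), and its dimmer probe set gave 0.17.

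Arrays of one group differed most within hypoxia. Over the 27 fitted genes the hypoxia range was wider than the ambient range for 20. It was over 1 log2 unit for 4 genes (Epcam, Cldn10, Slc34a2 and Cdh1), and the ambient range was for 1 (S100g). Over all probe sets fitted, arrays correlated at 0.989 to 0.992 within hypoxia and at 0.991 to 0.993 within ambient. The part of this array-wide spread in the ranges of the 27 genes was not tested. Hypoxia replicate 1 was the highest array of its group for 17 of the 27 genes and for 9 of the 11 that fell. The mean level over those 11 was 7.08, 6.50 and 6.57 on hypoxia replicates 1 to 3, against 7.80, 7.49 and 7.67 on ambient replicates 1 to 3. Ambient replicate 2 was lowest of its group for 8 of the 11. Over all 27 fitted genes it was 7.82, 7.49 and 7.56 on hypoxia replicates 1 to 3, against 8.23, 8.03 and 8.11 on ambient replicates 1 to 3. Both sets of means are a description, since the 11 were chosen for being lower. Leaving out hypoxia replicate 1 moved Epcam to -2.24, Cldn10 to -2.16, Cdh1 to -1.34 and Slc34a2 to -1.54.

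**Figure D3:**
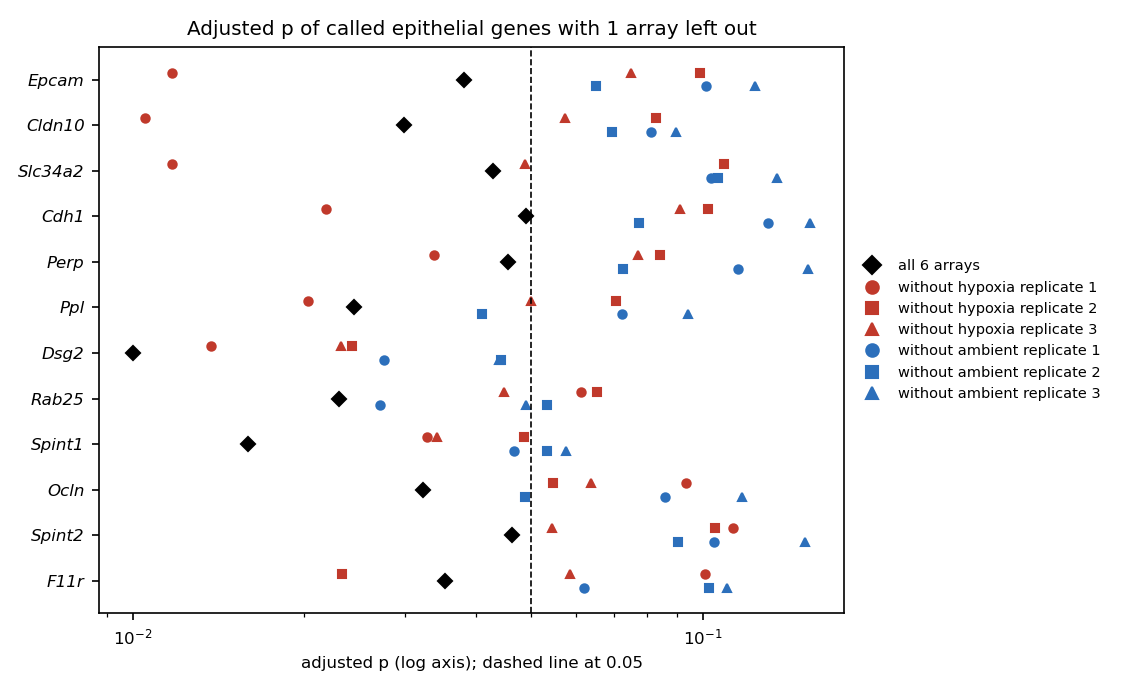
Adjusted p of the 12 called genes with all 6 arrays (black diamonds) and with 1 array left out (red for a hypoxia array, blue for an ambient array, symbols for replicates), on a log axis with 0.05 dashed. Dsg2 stays left of the line in all fits, Spint2 crosses it in every fit with an array left out, and Epcam, Cldn10, Slc34a2 and Cdh1 move left without hypoxia replicate 1.

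Other genes of epithelial junctions, polarity and glands, were taken from a separate list of 62. Of these, 48 had a probe set and 30 were fitted, of which 1 fell, 2 rose and 27 did not pass, with a median of 0.08. These counts stand beside 1.97% lower and 4.02% higher over the array, and their difference from the counts of the 42 genes was not tested. Prss8, or prostasin, a membrane protease of the matriptase pathway, fell by 0.66 (SE 0.15, adjusted p = 0.0442). It stood at 5.77, 5.83 and 5.40 in hypoxia, against 6.58, 6.24 and 6.18 in ambient, and the groups did not overlap. Sox17, a factor of uterine glands that endothelium also expresses, stood at 9.31, 9.33 and 9.39 in hypoxia, against 8.91, 8.70 and 8.91 in ambient and rose by 0.50 (SE 0.08, adjusted p = 0.0152). A dimmer probe set gave 0.34 (adjusted p = 0.252), and one left out for its mean gave -0.0024. Nectin2, an adhesion molecule of adherens junctions in many cells, stood at 10.51, 10.41 and 10.37 in hypoxia, against 10.22, 10.07 and 10.15 in ambient and rose by 0.29 (SE 0.07, adjusted p = 0.0480). Its other probe sets gave 0.54 (adjusted p = 0.0323) and 0.04 (adjusted p = 0.852). Pals1, a scaffold of the Crumbs polarity complex, differed by 0.14 at its brightest probe set (adjusted p = 0.460), and its dimmer probe set rose by 0.46 (adjusted p = 0.0292). Tmprss2 and Pax8 differed by -0.20 and -0.63 at their brightest probe sets (adjusted p = 0.242 and 0.0792). A dimmer probe set of each, left out for its mean, was called lower with no filter: -0.70 for Tmprss2 (adjusted p = 0.00742) and -0.58 for Pax8 (adjusted p = 0.0470).

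Simple keratins, the filament proteins that desmosomes anchor, had 2 rises, 0 falls and 2 that did not pass. Over the whole array 4.02% of probe sets were called higher and 1.97% lower. Krt7 stood at 7.54, 8.02 and 7.87 in hypoxia, against 6.91, 6.67 and 6.71 in ambient, and rose by 1.05 (adjusted p = 0.00806). Krt8 lay at 8.90 to 9.15 in hypoxia and 8.0042 to 8.47 in ambient, and rose by 0.88 (adjusted p = 0.0134). Krt18 differed by 0.87 without overlap (adjusted p = 0.0566). Krt19, a keratin of ductal and luminal epithelium, differed by -0.43 with overlap (adjusted p = 0.259). The summed linear signal of the 4 keratins was 1821 to 2206 on hypoxia arrays, against 1059 to 1386 on ambient arrays. Krt18, which did not pass, was the largest term of that sum on every array. Trophoblast markers moved with the keratins: of 10, 7 rose and 0 fell, and their summed signal was 15874 to 22210 in hypoxia, against 2625 to 7931 in ambient. Hypoxia replicate 1, highest for most junction genes that fell, was the lowest hypoxia array for Krt7, Krt8 and Krt18 but the highest for Krt19.

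Markers of other cells that could hold these transcripts were read beside the list. Their calls stand beside 1.97% of all probe sets called lower and 4.02% called higher. Of 5 natural killer cell markers 3 fell (Nkg7, Cst7 and Il2rb). The summed signal of all 5 was 36350 to 40200 in hypoxia, against 44488 to 50941 in ambient. Most of that sum came from Gzmb and Prf1, which were lower but did not pass (adjusted p = 0.0825 and 0.107). Of 5 macrophage markers 1, Cd163, fell, with a sum of 3306 to 3542 in hypoxia, against 3778 to 3906 in ambient. Decidual stroma had 2 rises of 6 (Bmp2 and Hand2), and its sum was 25212 to 36003 in hypoxia, against 19954 to 21910 in ambient. Bmp2 and Hand2 were the dimmest of the 6 and add little to that sum. Prl8a2, which adds more, stood at 13.66, 11.996 and 14.07 in hypoxia, against 11.78, 11.36 and 11.38 in ambient. It did not pass (adjusted p = 0.0683). Des was counted both here and among smooth muscle markers. Of 4 mesothelial markers 3 were measured. Wt1, the brightest of them and the main term of the sum, rose by 0.29, while Msln differed by -0.26 and Lrrn4 by -0.23, both lower without overlap and without a call. Their sum was 2140 to 2242 in hypoxia, against 1881 to 2022 in ambient. The 4 smooth muscle markers had 0 calls by limma and 1 at an unadjusted p under 0.05, with sums of 19548 to 25822 in hypoxia, against 19462 to 23710 in ambient. Visceral yolk sac had 0 calls among 2 fitted of 6, and Afp lay at 4.25 to 4.37, within the bacterial range. Their part in the junction differences was not tested.

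**Figure D4:**
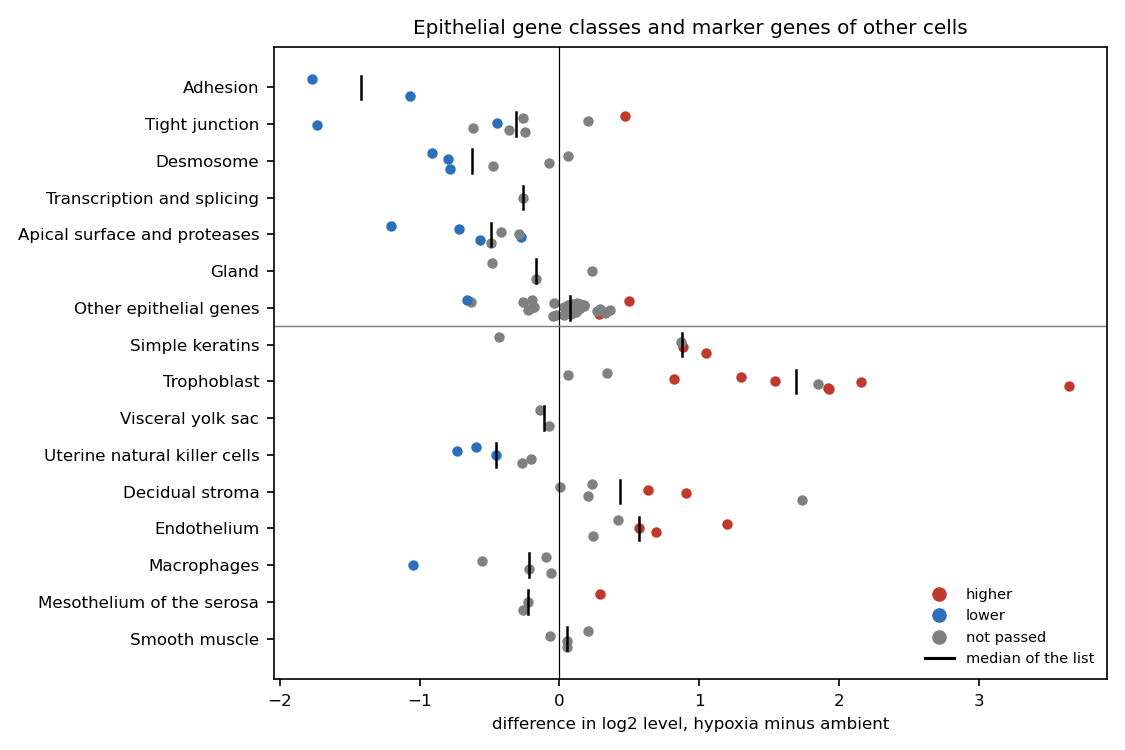
Difference in log2 level, hypoxia minus ambient, for each fitted gene of the epithelial classes (top), the separate epithelial list and the marker lists of other cells (bottom), with the median of each list as a bar. Adhesion, desmosome and apical genes lie mostly left of 0, keratin and trophoblast markers mostly right.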

How the data were processed

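RNA of 6 metrial gland samples was labelled with biotin and read on 1 Affymetrix rat array each. The authors deposited log2 levels, 1 for each probe set of an array, a scale inferred from their range (2.98 to 14.90). MAS5 and Affymetrix Expression Console are named in the submitters' processing notes, and the sources used here do not give the background correction, the summarization or the scaling. A shared scale between arrays hides any change common to most genes.

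After 57 control probe sets were removed from 31099, the dimmest 40% by mean level were left out and 18625 were fitted in R 4.3.3 with limma 3.58.1 (lmFit, then eBayes with a variance trend, group as the only term, two-sided, Benjamini-Hochberg over all probe sets fitted, threshold 0.05). The fit was checked on simulated data. Gene names came from the platform annotation, looked up by gene identifier in RefSeq GRCr8 (20758 of 20826 single-symbol probe sets matched). Every listed gene is accounted for, and companion genes are named where any of their probe sets passed, with the filter or with none. The members, lists and alternatives were chosen with earlier results of these data known. Alternatives covered normalization, filter, offset, variance model, array weights, replicate block, probe set choice and each array left out. With no read depth, precision rests on the number of arrays.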

Additional observations from a re-analysis of the deposited data

How the results depend on the processing

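With 16 alternatives, 349 of 416 differences of single fitted genes kept their direction and their side of the threshold. Another 61, all of called genes, kept the direction and lost the call, 48 of them with an array left out. A call was gained in 4, and 2 changed sign. These were Dsp (0.083) and Tjp1 (-0.0125) with the mean of a gene's probe sets, which follows from probe sets of opposite sign. The count of 349 does not measure how firm the calls are. Another filter or variance model leaves a difference unchanged, and a gene without a call has none to lose. The count of 11 genes called lower was 4 with the 60% filter, which fitted 14 of the genes, and 7 with no variance trend, whose cause was not tested. It ran from 2 to 8 with an array left out, where 44 to 346 probe sets of the whole array were called lower. The count of 1 gene called higher was 0 with no variance trend and 0 to 1 with an array left out. The median difference of -0.44 was -0.28 with no filter, which adds 11 dim genes, and -0.267 with an offset of 64, which compresses low signals. That offset moved Cdh1 to -0.63, Cldn10 to -0.97, Dsg2 to -0.38, Spint1 to -0.26 and Rab25 to -0.41, with no call lost. The 1116 probe sets called over the array became 267 to 1029 with an array left out. Quantile normalization and median centring left 11 genes lower and 1 higher, the same genes. With the replicate block 12 were lower, 10 of them shared. Deviations of same-numbered arrays from their group means correlated at 0.012 to 0.071 over all probe sets fitted, and those of other pairs at -0.137 to 0.081. Over the 27 fitted genes, replicate 1 was the highest array for 17 in hypoxia and for 16 in ambient. Replicate 2 was the lowest for 15 and 14. The labels do not say whether same-numbered samples were paired, and these values cannot decide it. With the mean of a gene's probe sets Cdh1, Cldn1 and Crb3 fell below the filter and could not be fitted.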
